A study of Mus musculus with 23 samples.

Results

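Chemokine receptors are the surface proteins that steer CD4+ T cells through lymphoid organs, mucosa, skin and inflamed tissue. The receptor genes described here were Ccr2, Ccr4, Ccr6, Ccr7, Ccr8, Ccr9, Ccr10, Cxcr3, Cxcr5 and Cxcr6, taken by gene symbol as the receptors used by CD4 T cells. They made up 10 of the 18194 genes measured. All probe sets annotated to 1 of these genes alone were kept, which gave 18 of 45101 probe sets. Where a gene had several, the one with the highest mean signal over the arrays stood for it, and the others were reported beside it.

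Mouse CD4+ T cells had been sorted into 4 populations by CD25, the interleukin-2 receptor alpha chain, and CD49f, the integrin alpha 6 chain. The CD25+CD49f+ gate had 4 arrays, the CD25+CD49f- gate 5, the CD25-CD49f+ gate 7 and the CD25-CD49f- gate 7, 23 in all, each hybridised with labelled total RNA and named as a biological replicate. Strain, age, tissue of origin and treatment are not given in the labels, and all animals were labelled female. Values are log2 signals, so a difference of 1 is a 2-fold change, and each probe set was compared with itself across gates and never with another.

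Chemokine receptors couple to inhibitory G proteins, and a cell that carries one moves up the gradient of its chemokine. CCR7 and CXCR5 position T cells inside lymphoid organs, CXCR3, CCR2, CCR6 and CXCR6 serve entry into inflamed tissue and barrier sites, and CCR9, CCR10, CCR4 and CCR8 are best known for homing to gut and skin. Regulatory T cells, which carry CD25 and the transcription factor FOXP3, use the same receptors as the effector cells they restrain.

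The T cell markers measured (6 of 8 listed) averaged 10.60 to 11.32 on every array. Over the arrays, listed markers of CD8 T cells averaged 5.63 to 6.22, of B cells 5.62 to 7.03, of NK cells 5.17 to 6.02 and of neutrophils 7.60 to 9.45. Those of plasma cells averaged 7.49 to 8.26, and like those of neutrophils lay above the limit of 6.50 set below. Il2ra, which codes CD25, averaged 9.60 and 9.69 in CD25+CD49f+ and CD25+CD49f- cells, against 6.84 and 5.42 in CD25-CD49f+ and CD25-CD49f- cells. Foxp3 averaged 9.85 and 9.79 in CD25+CD49f+ and CD25+CD49f- cells, against 8.25 and 4.74 in CD25-CD49f+ and CD25-CD49f- cells. Itga6, which codes CD49f, averaged 9.81 in CD25+CD49f+ and 9.64 in CD25+CD49f- cells, while CD25-CD49f+ cells had 9.36 and CD25-CD49f- cells 9.79, so its transcript did not separate the CD49f gates. Against the labels, 10 arrays showed Y-linked transcripts (Eif2s3y, Kdm5d) without Xist, 12 showed Xist alone, and the array of CD25+CD49f- replicate 5 showed both. Each group held both kinds, and results are given within each kind below. The kind with Xist alone had 2 CD25+CD49f+, 2 CD25+CD49f-, 4 CD25-CD49f+ and 4 CD25-CD49f- arrays. The kind with Y-linked transcripts and without Xist had 2, 2, 3 and 3 in the same order. Fits within a kind thus rest on few arrays, which limits what a lost call there can show. The arrays of CD25-CD49f- replicates 1 and 7, CD25-CD49f+ replicate 1 and CD25+CD49f- replicate 5 stood apart, with median correlations with their own group of 0.967 to 0.982, against at least 0.989 for the others. The last of these also had the largest excess of the Actb 3' over its 5' probe set, a sign of RNA degradation (4.83, against at most 2.09 on the arrays that did not stand apart). The Xist probe set gave signals of up to 6.50 where Xist was absent, and 22 genes of other tissues averaged 2.94 to 6.74. A group mean under 6.50 is called within the range of absent transcripts below, where the size of a fold is limited by background. This limit is 1 of several possible, and means between 6.50 and 6.74, such as that of Cxcr5 in CD25+CD49f- cells (6.61), were not clearly above absent signals either.

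The CD49f gates were compared within CD25+ cells first. CD25+CD49f+ cells had less Ccr6, Ccr9 and Cxcr6 than CD25+CD49f- cells, by 2.51-fold, 5.13-fold and 4.86-fold, and no receptor was called higher. A call is a limma adjusted p under 0.05 over all 18194 genes. Thus 3 of the 10 receptors were called, all lower, where 1.82% of all genes were called in either direction and 1.47% lower. An unadjusted limma p under 0.05 was found for 5 receptors, and its share over all genes is not given. The size of the difference had a median of 0.283 over the 10 receptors and of 0.0877 over all genes. The plot of receptor levels by array shows the 4 gates for each gene.

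**Figure D1:**
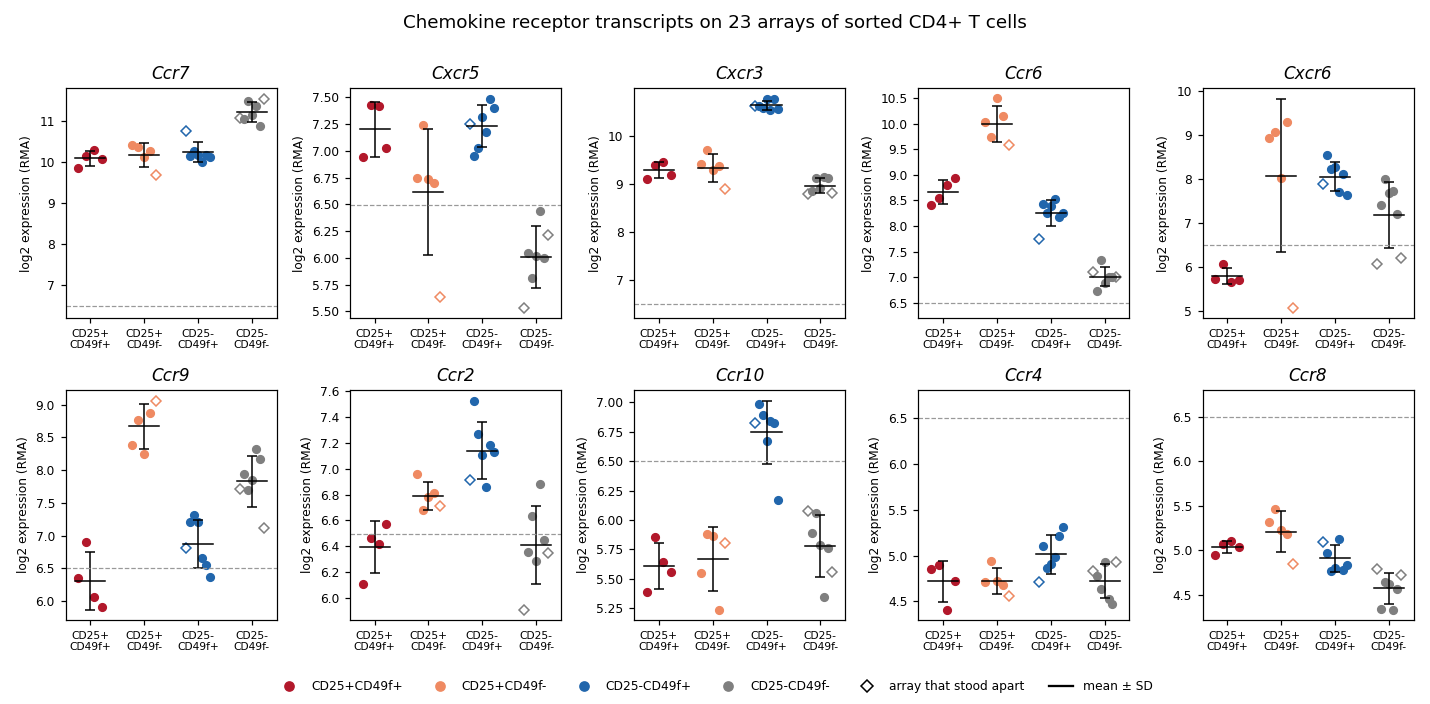
Log2 expression of the 10 receptors (y axis, RMA values, a scale of its own for each gene) on each array, by gate (x axis), with the mean ± SD as black bars, open diamonds for the 4 arrays that stood apart and a dashed line at 6.50, the highest signal of absent Xist. Ccr6 and Ccr9 are highest in CD25+CD49f- cells, Cxcr6 is low in CD25+CD49f+ cells, and the highest means are in CD25-CD49f+ cells for Cxcr3 and Ccr10 and in CD25-CD49f- cells for Ccr7.

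CCR6 is the receptor of CCL20 and marks Th17 cells and the regulatory T cells that follow them. Ccr6 read 8.41, 8.54, 8.81 and 8.93 on the CD25+CD49f+ arrays, against 10.03, 9.75, 10.50, 10.15 and 9.59 on the CD25+CD49f- arrays. In CD25- cells it ran between 7.75 and 8.52 with a median of 8.25 in the CD49f+ gate, and between 6.72 and 7.33 with a mean of 7.01 in the CD49f- gate. Every CD25+CD49f- array was above every array of the other gates, and every CD25-CD49f- array was below all others. The difference between CD25+CD49f+ and CD25+CD49f- cells was -1.33 ± 0.16 (SE, 95% confidence interval -1.67 to -0.99, limma adjusted p = 6.32e-06). It was -1.41 (adjusted p = 0.00405) among arrays without Y-linked transcripts, -1.46 (adjusted p = 0.00345) among Y-linked arrays without Xist, and -1.43 without the 4 arrays that stood apart. With bulk RNA, fewer cells that express a receptor and less RNA per cell cannot be told apart, here or in any result below.

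CCR9 is the receptor of CCL25, the chemokine of small intestine and thymus. Ccr9 read 6.36, 6.90, 6.07 and 5.90 on the CD25+CD49f+ arrays, against 8.38, 8.77, 8.24, 8.87 and 9.06 on the CD25+CD49f- arrays. It ran between 6.37 and 7.31 (median 6.81) in CD25-CD49f+ cells, and between 7.12 and 8.33 (median 7.84) in CD25-CD49f- cells. The CD49f+ gates were the low ones on both sides of CD25, and the 2 CD25+ groups did not overlap. The difference within CD25+ cells was -2.36 ± 0.23 (SE, 95% confidence interval -2.84 to -1.88, limma adjusted p = 1.65e-07), with -1.95 (adjusted p = 5.85e-04) among arrays without Y-linked transcripts and -2.57 (adjusted p = 0.00366) among Y-linked arrays without Xist. The CD25+CD49f+ mean of 6.31 lies in the range of absent transcripts, so the fold is limited by background. Ccr9 had 4 further probe sets. One fell by 1.64 ± 0.28 (adjusted p = 0.0011 over all probe sets), another gave -0.92 ± 0.26 (adjusted p = 0.11), and the remaining pair lay between 2.98 and 4.08 on all arrays and was called in no comparison. The brightest probe set is of a design class whose probes can also bind other transcripts.

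CXCR6 is the receptor of the membrane-bound chemokine CXCL16 and marks tissue-resident, NKT and Th17 cells. Cxcr6 read 5.72, 6.07, 5.67 and 5.71 on the CD25+CD49f+ arrays, against 8.93, 9.07, 8.01, 9.28 and 5.08 on the CD25+CD49f- arrays. The last value belongs to replicate 5, the array with the largest Actb difference, and without it the groups were far apart. The difference was -2.28 ± 0.55 (SE, 95% confidence interval -3.42 to -1.14, limma adjusted p = 0.0248) with all arrays, and -3.03 without CD25+CD49f- replicate 5 (adjusted p = 1.73e-06). Leaving out any other single CD25+ array took the adjusted p to between 0.0504 and 0.0957, with replicate 5 still in the group. A further Cxcr6 probe set read 4.85, 5.91, 4.94 and 5.34 on the CD25+CD49f+ arrays, against 8.96, 8.83, 8.69, 9.03 and 8.13 on the CD25+CD49f- arrays, replicate 5 included. By that probe set the groups did not overlap, and the difference was -3.47 ± 0.32 (adjusted p = 8.33e-08 over all probe sets). Among arrays without Y-linked transcripts the brightest probe set gave -3.10 (adjusted p = 0.00247), and among Y-linked arrays without Xist -2.95 (adjusted p = 0.0137). The CD25+CD49f+ mean lay in the range of absent transcripts on both probe sets.

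Some markers of gamma delta and NKT cells, which also carry Ccr6 and Cxcr6, gave lower signals where these receptors were lower. Of 5 listed, 3 were measured, and their mean ran from 5.79 to 6.03 on the CD25+CD49f+ arrays, against 6.27 to 6.54 on the CD25+CD49f- arrays. Blk (6.25 ± 0.22 in CD25+CD49f+ and 7.05 ± 0.22 in CD25+CD49f- cells, SD, n = 4 and 5) and Zbtb16 (5.77 ± 0.12 and 6.49 ± 0.23) were called lower, and the remaining measured marker was not called. Both Zbtb16 means and the Blk mean of CD25+CD49f+ cells lay in the range of absent transcripts. The part of gamma delta and NKT cells in the receptor differences was not tested. Of 12 measured markers of myeloid and dendritic cells, 3 were called lower in CD25+CD49f+ cells, with a list mean of 6.29 to 7.24 on the CD25+CD49f+ arrays and 6.94 to 7.40 on the CD25+CD49f- arrays. Of all genes 1.47% were called lower in this comparison.

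The promoter windows of the 3 receptors that differed between the CD25+ gates are shown because they lie at the start sites of the genes that moved. They run from 250 bases before to 50 bases after the annotated start site, on the gene's strand, from RefSeq (GRCm38.p6). Ccr6 is on the plus strand at chr17:8235793-8236092, Ccr9 on the plus strand at chr9:123766961-123767260 and Cxcr6 on the plus strand at chr9:123806227-123806526. Capitals mark matches to the motifs searched.
Ccr6: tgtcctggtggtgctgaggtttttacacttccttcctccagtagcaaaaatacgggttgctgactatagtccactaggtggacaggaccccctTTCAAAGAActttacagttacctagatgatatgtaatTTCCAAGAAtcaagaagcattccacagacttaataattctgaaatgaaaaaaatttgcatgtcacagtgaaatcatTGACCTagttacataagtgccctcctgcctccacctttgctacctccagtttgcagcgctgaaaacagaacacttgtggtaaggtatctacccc
Ccr9: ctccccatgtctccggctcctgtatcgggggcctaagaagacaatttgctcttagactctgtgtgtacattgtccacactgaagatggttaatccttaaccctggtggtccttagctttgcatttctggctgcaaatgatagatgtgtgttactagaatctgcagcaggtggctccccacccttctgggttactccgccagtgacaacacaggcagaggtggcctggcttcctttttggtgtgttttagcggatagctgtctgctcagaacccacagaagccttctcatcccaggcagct
Cxcr6: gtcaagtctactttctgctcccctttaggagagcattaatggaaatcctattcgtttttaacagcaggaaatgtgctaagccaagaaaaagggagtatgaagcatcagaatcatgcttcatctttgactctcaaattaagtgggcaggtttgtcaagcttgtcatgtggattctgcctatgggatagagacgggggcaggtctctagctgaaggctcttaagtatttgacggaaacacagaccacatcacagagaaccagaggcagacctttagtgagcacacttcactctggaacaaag
Searched on both strands were TGANTCA (AP-1), AGGTCA (the ROR and nuclear receptor element), GTAAACA (forkhead), TTCNNNGAA (STAT) and CACGTG (E-box), a palindromic site counted once. The Ccr6 window held TTCNNNGAA at positions -157 and -120 from the start site, and AGGTCA on the reverse strand, written TGACCT, at position -44. These matches did not overlap each other. The Ccr9 and Cxcr6 windows and a second Ccr6 window further along the gene held no match. Of 32851 mouse promoter windows, TTCNNNGAA was in 8.30% and AGGTCA in 16.3%, so neither is rare, and TGANTCA was in 7.81%, GTAAACA in 3.65% and CACGTG in 7.15%. Windows were at hand for 7 of the 10 genes, 8 windows in all, and apart from the Ccr6 window the Ccr4 window was the one with a match, to TGANTCA.

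The other 7 receptors were not called between the CD25+ gates, and some of their intervals leave room for a difference. Cxcr5 gave 0.59 ± 0.21 (95% confidence interval 0.15 to 1.03, limma adjusted p = 0.303) and Ccr2 -0.40 ± 0.15 (95% confidence interval -0.71 to -0.09, adjusted p = 0.336). One further Ccr2 probe set was called at -0.69 ± 0.13 (adjusted p = 0.0027 over all probe sets). The intervals of Ccr7 (-0.41 to 0.24), Cxcr3 (-0.30 to 0.20), Ccr4 (-0.26 to 0.26) and Ccr10 (-0.39 to 0.28) lay within a log2 difference of 0.41 on either side of 0. Ccr8 differed by -0.17 ± 0.12 (adjusted p = 0.922).

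The next comparison asked what CD49f marks among CD25- cells, and here most receptors moved. CD25-CD49f+ cells had more Cxcr3 (3.19-fold), Ccr6 (2.37-fold), Cxcr5 (2.34-fold), Ccr10 (1.95-fold), Ccr2 (1.66-fold) and Ccr8 than CD25-CD49f- cells. They had less Ccr7 (1.98-fold) and Ccr9 (1.94-fold). Thus 6 receptors were called higher and 2 lower of 10, where 13.4% of all genes were called, 8.01% higher and 5.42% lower. The size of the difference had a median of 0.960 over the receptors and of 0.105 over all genes.

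CCR7 binds CCL19 and CCL21 and holds naive and central memory cells in lymph nodes. Ccr7 ran from 10.01 to 10.76 (median 10.17) in CD25-CD49f+ cells, against 10.89 to 11.55 (median 11.15) in CD25-CD49f- cells. It read 9.86, 10.15, 10.29 and 10.07 in CD25+CD49f+ cells and 10.41, 10.38, 10.13, 10.28 and 9.69 in CD25+CD49f- cells. Every CD25-CD49f- array was above every other array, and the other 3 gates overlapped. The difference within CD25- cells was -0.98 ± 0.12 (limma adjusted p = 1.74e-06), with -0.93 among arrays without Y-linked transcripts and -1.06 among Y-linked arrays (adjusted p = 7.19e-04 and 0.00324).

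CXCR5 binds CXCL13 and leads follicular helper and follicular regulatory T cells to B cell follicles. Cxcr5 ran from 6.96 to 7.49 (median 7.26) in CD25-CD49f+ cells, against 5.53 to 6.44 (median 6.02) in CD25-CD49f- cells. It read 6.94, 7.43, 7.42 and 7.03 in CD25+CD49f+ cells and 6.75, 7.24, 6.74, 6.70 and 5.63 in CD25+CD49f- cells, where the low value is again replicate 5. Both CD49f+ gates lay wholly above the CD25-CD49f- gate. The difference within CD25- cells was 1.23 ± 0.17 (limma adjusted p = 7.38e-06), with 1.19 and 1.27 in the 2 kinds of arrays, and the CD25-CD49f- mean of 6.01 lay in the range of absent transcripts.

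CXCR3 is the Th1 receptor of CXCL9, CXCL10 and CXCL11. Cxcr3 ran from 10.53 to 10.77 (median 10.61) in CD25-CD49f+ cells, against 8.78 to 9.13 (median 8.91) in CD25-CD49f- cells. It read 9.09, 9.39, 9.45 and 9.17 in CD25+CD49f+ cells and 9.42, 9.69, 9.29, 9.36 and 8.88 in CD25+CD49f- cells. The CD25-CD49f+ arrays were above all others, with the smallest spread of any gate for this gene (SD 0.10, n = 7). The difference within CD25- cells was 1.67 ± 0.10 (limma adjusted p = 3.66e-12), and 1.65 and 1.70 in the 2 kinds of arrays. Cxcr3 is on the X chromosome. Tbx21, which codes the Th1 factor T-bet, averaged 8.65 ± 0.12 in CD25-CD49f+ cells, against 7.39 ± 0.16 in CD25-CD49f- cells (SD, n = 7 each).

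CCR2 binds CCL2 and other monocyte chemoattractants and marks inflammatory and memory T cells. Ccr2 ran from 6.86 to 7.53 (median 7.13) in CD25-CD49f+ cells, against 5.91 to 6.88 (median 6.35) in CD25-CD49f- cells. The highest CD25-CD49f- array lay just inside the CD25-CD49f+ range, and the CD25-CD49f- mean of 6.41 was in the range of absent transcripts. The difference was 0.73 ± 0.12 (limma adjusted p = 5.48e-05). A pair of further Ccr2 probe sets rose by 0.91 ± 0.20 and 0.58 ± 0.10 (adjusted p = 0.003 and 2.9e-04 over all probe sets). The remaining Ccr2 probe set, at means of 6.50 to 6.79 in every gate, gave 0.25 ± 0.11 (adjusted p = 0.15) and was called in none of the 6 pairs of gates. The plot of probe sets of the same gene shows this split.

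**Figure D2:**
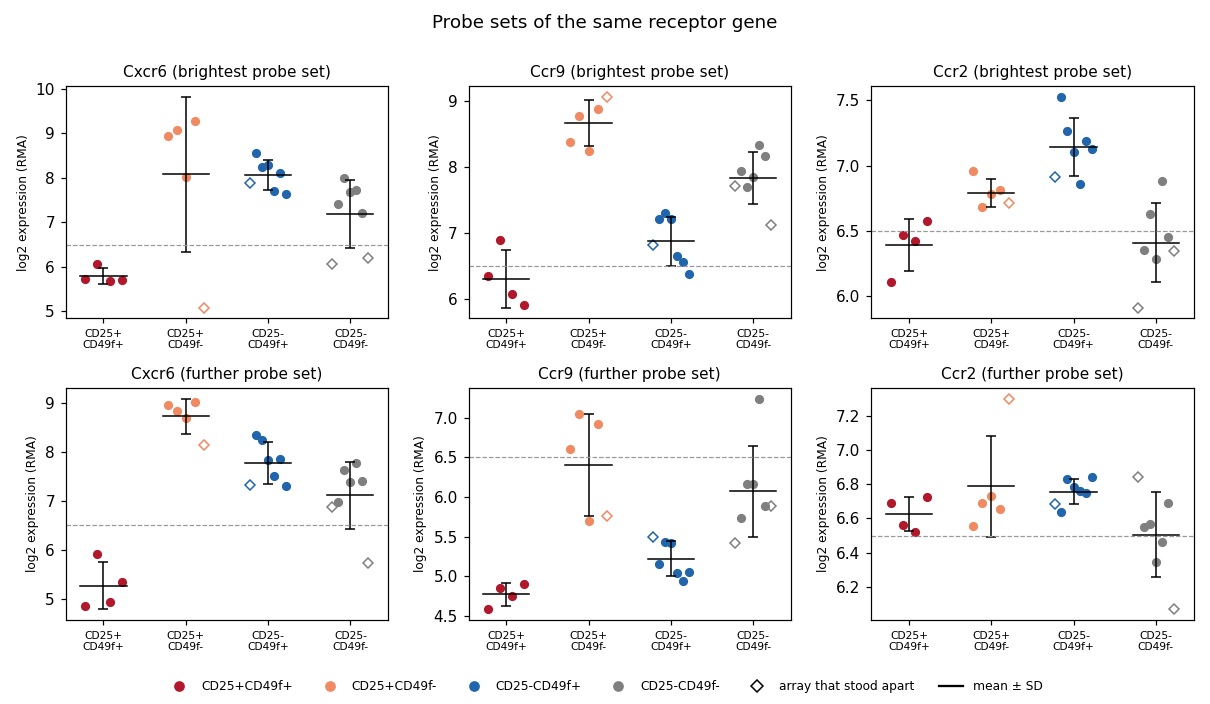
Log2 expression (y axis, RMA values, a scale of its own for each panel) by gate (x axis) for the brightest and a further probe set of Cxcr6, Ccr9 and Ccr2, with the mean ± SD, open diamonds for arrays that stood apart and a dashed line at 6.50. The CD25+CD49f- array at 5.08 on the brightest Cxcr6 probe set reads 8.13 on the further one, and the further Ccr2 probe set shows no step between gates.

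CCR10 binds CCL27 and CCL28 and guides T cells to skin and mucosal epithelium. Ccr10 ran from 6.17 to 6.99 (median 6.82) in CD25-CD49f+ cells, against 5.35 to 6.08 (median 5.78) in CD25-CD49f- cells, a difference of 0.96 ± 0.13 (limma adjusted p = 4.68e-06). It read 5.39, 5.86, 5.64 and 5.55 in CD25+CD49f+ cells and 5.55, 5.88, 5.86, 5.24 and 5.80 in CD25+CD49f- cells. The CD25-CD49f+ mean of 6.74 was above 6.50 but about level with the brightest gene of other tissues (6.74), so the presence of the transcript was not clear in any gate. No array of another gate reached the lowest CD25-CD49f+ value.

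Ccr6 differed within CD25- cells by 1.25 ± 0.13 (limma adjusted p = 7.42e-08), with 1.13 and 1.40 in the 2 kinds of arrays. Ccr9 differed by -0.96 ± 0.19 (adjusted p = 5.26e-04), and by its second brightest probe set by -0.85 ± 0.22 (adjusted p = 0.013 over all probe sets). Beside the Ccr9 value, the markers of myeloid and dendritic cells, some of which carry Ccr9, were lower: 7 of 12 measured were called lower and 0 higher in CD25-CD49f+ cells, with a list mean of 6.90 to 7.51 there, against 7.05 to 8.80 in CD25-CD49f- cells. Siglech, a defining marker of plasmacytoid dendritic cells, averaged 5.73 ± 0.16 in CD25-CD49f+ cells, against 7.09 ± 0.59 in CD25-CD49f- cells (SD, n = 7 each), and in CD25+CD49f+ and CD25+CD49f- cells it averaged 5.75 and 5.76. The part of myeloid and dendritic cells in the Ccr9 difference was not tested. In the same comparison 4 of 4 regulatory T cell markers were called higher (list mean 8.84 to 9.32, against 6.07 to 6.63). Of the gamma delta and NKT cell markers 1 of 3 was called higher. Of all genes 8.01% were called higher and 5.42% lower in this comparison. What these markers have to do with the receptor differences was not tested.

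Cxcr6 ran from 7.63 to 8.55 (median 8.10) in CD25-CD49f+ cells, against 6.07 to 7.997 (median 7.40) in CD25-CD49f- cells, and its difference of 0.87 ± 0.44 was not called (limma adjusted p = 0.242). Without CD25+CD49f- replicate 5, which enters through the shared estimate of the spread, the same difference was called (adjusted p = 0.02), and without the 4 arrays that stood apart it was 0.48 (adjusted p = 0.0797). The further Cxcr6 probe set gave 0.66 ± 0.25 (adjusted p = 0.11). Ccr8, a receptor of CCL1 and CCL8 found on regulatory and Th2 cells, rose by 0.34 ± 0.09 (adjusted p = 0.0129), and Ccr4, the receptor of CCL17 and CCL22 on skin-homing, Th2 and regulatory cells, gave 0.29 ± 0.10 (adjusted p = 0.0651). All group means of Ccr8 (4.57 to 5.21) and Ccr4 (4.72 to 5.01) lay in the range of absent transcripts, so for these receptors the values show signals and not transcript ratios. Among arrays without Y-linked transcripts, and among Y-linked arrays, the Ccr8 difference of 0.32 and 0.37 was not called (adjusted p = 0.157 and 0.169).

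Whether CD49f went with a different change in CD25+ than in CD25- cells was tested as an interaction. For 8 of 10 receptors the CD49f difference in CD25+ cells differed from that in CD25- cells, 7 below and 1 above it, where 5.31% of all genes were called, 4.33% below and 0.984% above. The gap was -3.15 ± 0.71 for Cxcr6 (limma adjusted p = 0.00555), -2.57 ± 0.21 for Ccr6 (adjusted p = 3.45e-09) and -1.72 ± 0.16 for Cxcr3 (adjusted p = 2.51e-08). Ccr6 was lower with CD49f in CD25+ cells and higher with CD49f in CD25- cells, both called. Cxcr3 was called in CD25- cells and had an interval around 0 in CD25+ cells.

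The interaction was -1.40 ± 0.30 for Ccr9 (limma adjusted p = 0.00325), whose differences had the same sign in both CD25 gates. It was -1.13 ± 0.19 for Ccr2 (adjusted p = 2.54e-04), -1.02 ± 0.21 for Ccr10 (adjusted p = 0.00234) and -0.51 ± 0.15 for Ccr8 (adjusted p = 0.0448, not called in 23 of 39 alternatives). Ccr7 was the receptor above 0, at 0.90 ± 0.20 (adjusted p = 0.0051). All of these but Ccr6, Cxcr3 and Ccr7 involve a group mean in the range of absent transcripts. By the second brightest Ccr9 probe set the interaction was -0.79 ± 0.36 and not called (adjusted p = 0.35 over all probe sets), while the further Cxcr6 probe set gave -4.13 ± 0.41 (adjusted p = 2.25e-07). Cxcr5 (-0.63 ± 0.27, adjusted p = 0.267) and Ccr4 (-0.29 ± 0.16, adjusted p = 0.472) were not called, and without CD25+CD49f- replicate 5 Cxcr5 was (-0.88, adjusted p = 0.00882). Among arrays without Y-linked transcripts 3 receptors were called (Ccr6, Cxcr3 and Cxcr6), and among Y-linked arrays 4 (these and Ccr2).

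**Figure D3:**
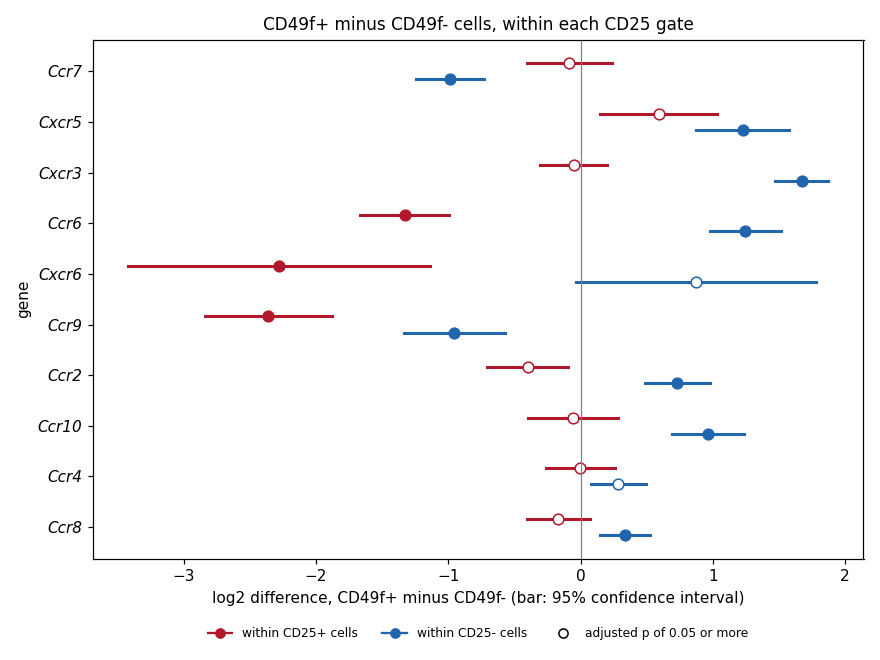
Log2 difference, CD49f+ minus CD49f- (x axis), of each receptor (y axis) within CD25+ cells (red) and within CD25- cells (blue), with 95% confidence intervals as bars and open points where the limma adjusted p was 0.05 or more. Ccr6 lies at -1.33 in CD25+ cells and at 1.25 in CD25- cells, and Ccr9 lies below 0 in both.

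CD25 was then compared within each CD49f gate. Among CD49f+ cells, CD25+CD49f+ cells had less Cxcr3 (2.56-fold), Cxcr6 (4.79-fold), Ccr10 and Ccr2 than CD25-CD49f+ cells, and no receptor was called higher. That is 4 of 10 called, all lower, where 5.72% of all genes were called and 2.91% lower. The differences were -1.35 ± 0.11 for Cxcr3 (limma adjusted p = 7.92e-09), -2.26 ± 0.52 for Cxcr6 (adjusted p = 0.00617), -1.14 ± 0.15 for Ccr10 (adjusted p = 1.22e-05) and -0.75 ± 0.14 for Ccr2 (adjusted p = 6.97e-04). For all 4 receptors, picked here by their calls, the arrays of the 2 groups did not overlap, and the share of all genes without overlap is not given. By their brightest probe sets Cxcr6, Ccr10 and Ccr2 averaged 5.79, 5.61 and 6.39 in CD25+CD49f+ cells, under 6.50. The Ccr2 probe set without a step between gates averaged 6.63 there and gave -0.13 ± 0.13 (adjusted p = 0.9 over all probe sets). Cxcr3 stayed called in both kinds of arrays (-1.40 and -1.31), as did Cxcr6 (-2.34 and -2.12). Ccr2 was called in neither alone (adjusted p = 0.0576 without Y-linked transcripts and 0.0737 with them), and Ccr10 was called without Y-linked transcripts and not with them (adjusted p = 0.00318 and 0.0808).

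Ccr6 (0.42 ± 0.15, 95% confidence interval 0.11 to 0.74, limma adjusted p = 0.136) and Ccr9 (-0.57 ± 0.22, 95% confidence interval -1.02 to -0.12, adjusted p = 0.175) were not called among CD49f+ cells. Ccr7 (-0.15 ± 0.15, adjusted p = 0.844), Cxcr5 (-0.03 ± 0.20, adjusted p = 0.992), Ccr8 (0.13 ± 0.11, adjusted p = 0.784) and Ccr4 (-0.29 ± 0.12, adjusted p = 0.212) were not called either. Of all genes 2.81% were called higher with CD25 among CD49f+ cells and 2.91% lower. The regulatory T cell markers, Il2ra included, were called higher in 4 of 4. Of the gamma delta and NKT cell markers 1 of 3 was called lower, and of the 12 myeloid and dendritic cell markers 1. Their part in the receptor differences was not tested.

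Among CD49f- cells, CD25+CD49f- cells had 7.98-fold more Ccr6 than CD25-CD49f- cells, the largest difference of any receptor in any pair of gates by the brightest probe sets. Ccr9 (1.79-fold), Cxcr5, Cxcr3 and Ccr8 were also higher, and Ccr7 was lower (2.07-fold). Thus 5 receptors were called higher and 1 lower of 10, where 14% of all genes were called, 9.34% higher and 4.68% lower. The Ccr6 difference was 2.996 ± 0.142 (limma adjusted p = 2.06e-14), with 2.81 and 3.41 in the 2 kinds of arrays. The Ccr7 difference was -1.05 ± 0.14 (adjusted p = 2.37e-06), with -0.87 and -0.96. Ccr8 gave 0.63 ± 0.10 (adjusted p = 4.32e-05), with both means in the range of absent transcripts.

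Smaller calls of this comparison were less steady. Ccr9 differed by 0.84 ± 0.20 (limma adjusted p = 0.00466), and by 0.68 (adjusted p = 0.0757) and 0.82 (adjusted p = 0.167) in the 2 kinds of arrays, and by its second brightest probe set by 0.34 ± 0.25 (adjusted p = 0.51 over all probe sets). Cxcr3 differed by 0.37 ± 0.11 (adjusted p = 0.0178) and Cxcr5 by 0.60 ± 0.19 (adjusted p = 0.0288). Their calls were lost in 6 and 9 of 41 alternatives. In arrays without and with Y-linked transcripts the adjusted p was 0.0235 and 0.177 for Cxcr3, and 0.00982 and 0.036 for Cxcr5. Without CD25+CD49f- replicate 5 the differences were 0.48 and 0.85, and both were called. Cxcr6 was not called (0.89 ± 0.48, adjusted p = 0.289), but was at 1.64 without CD25+CD49f- replicate 5 (adjusted p = 2.66e-04) and at 1.62 ± 0.28 by its further probe set (adjusted p = 1.67e-04). Ccr2 gave 0.38 ± 0.13 (adjusted p = 0.0503), Ccr10 -0.11 ± 0.14 (adjusted p = 0.735) and Ccr4 -0.01 ± 0.11 (adjusted p = 0.986). Of all genes 9.34% were called higher and 4.68% lower. Of the 12 myeloid and dendritic cell markers 1 was higher and 6 were lower in CD25+CD49f- cells (list mean 6.94 to 7.40, against 7.05 to 8.80 in CD25-CD49f- cells). Of the gamma delta and NKT cell markers 2 of 3 were higher (6.27 to 6.54, against 5.83 to 6.15), at list means in or near the range of absent transcripts. The regulatory T cell markers, which include Il2ra and so the CD25 of the sort itself, were higher in 4 of 4 (10.28 to 10.75, against 6.07 to 6.63). The part of these cells in the receptor differences was not tested.

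**Figure D4:**
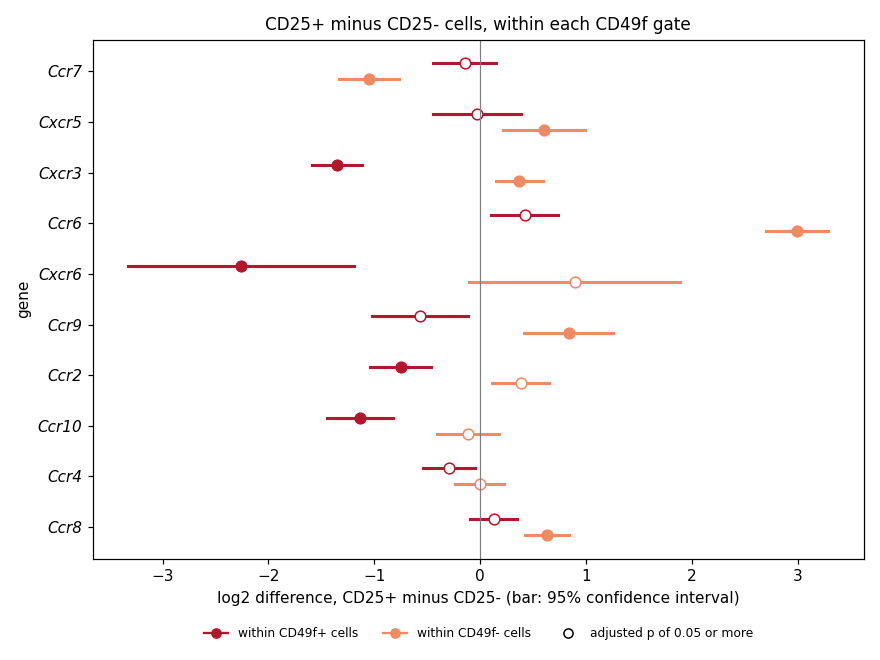
Log2 difference, CD25+ minus CD25- (x axis), of each receptor (y axis) within CD49f+ cells (dark red) and within CD49f- cells (orange), with 95% confidence intervals as bars and open points where the limma adjusted p was 0.05 or more. Ccr6 lies at 2.996 within CD49f- cells and at 0.42 within CD49f+ cells, and Cxcr3 lies on opposite sides of 0.

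The gates that differ in both markers were compared as well. CD25+CD49f+ cells had more Ccr6 (3.17-fold), Cxcr5 (2.29-fold) and Ccr8 and less Ccr9 (2.87-fold) and Ccr7 (2.19-fold) than CD25-CD49f- cells, so 3 receptors were called higher and 2 lower, where 13.2% of all genes were called, 7.63% higher and 5.53% lower. The differences were 1.67 ± 0.15 for Ccr6 (limma adjusted p = 7.26e-09), 1.20 ± 0.20 for Cxcr5 (adjusted p = 8.15e-05), -1.52 ± 0.22 for Ccr9 (adjusted p = 9.65e-06), -1.13 ± 0.15 for Ccr7 (adjusted p = 2.2e-06) and 0.47 ± 0.11 for Ccr8 (adjusted p = 0.00322). Ccr8 was called neither among arrays without Y-linked transcripts (0.41, adjusted p = 0.124) nor among Y-linked arrays (0.53, adjusted p = 0.0646). Cxcr6 gave -1.39 ± 0.52 (adjusted p = 0.0846), and was called by its further probe set (-1.85 ± 0.30, adjusted p = 7.66e-05) and without CD25+CD49f- replicate 5, an array that enters here through the shared estimate of the spread (adjusted p = 0.00157). Of the myeloid and dendritic cell markers 9 of 12 were called lower in CD25+CD49f+ cells. Of 7 measured B cell markers 1 was called higher and 2 lower, the most in any pair of gates. Of the regulatory T cell markers, which include Il2ra, 4 of 4 were called higher (list mean 10.51 to 10.78, against 6.07 to 6.63). What these markers have to do with the receptor differences of this comparison was not tested. Cxcr3 (0.32 ± 0.11, adjusted p = 0.0703), Ccr2 (-0.02 ± 0.14), Ccr10 (-0.17 ± 0.15) and Ccr4 (-0.01 ± 0.12) were not called.

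Between the single positive gates, CD25+CD49f- cells had more Ccr6 (3.37-fold) and Ccr9 (3.46-fold) and less Cxcr3 (2.47-fold), Ccr10 (2.11-fold) and Cxcr5 than CD25-CD49f+ cells. That is 2 higher and 3 lower of 10, where 8.86% of all genes were called, 5.23% higher and 3.63% lower. Ccr6 differed by 1.75 ± 0.14 (limma adjusted p = 1.76e-09), Ccr9 by 1.79 ± 0.20 (adjusted p = 4.36e-07), Cxcr3 by -1.30 ± 0.11 (adjusted p = 2.08e-09) and Ccr10 by -1.08 ± 0.14 (adjusted p = 5.38e-06). The Cxcr5 difference of -0.62 ± 0.19 (adjusted p = 0.0359) was -0.38 and not called without CD25+CD49f- replicate 5 (adjusted p = 0.147). In the kinds of arrays without and with Y-linked transcripts it was -0.15 and -0.64 and called in neither (adjusted p = 0.916 and 0.0644), and its call was lost in 17 of 41 alternatives. Cxcr6 was at 0.02 ± 0.48 (adjusted p = 0.998) by its brightest probe set and at 0.96 ± 0.28 (adjusted p = 0.0363 over all probe sets) by the further one, which was called. Markers moved with the gates here too. Of 4 regulatory T cell markers 4 were called higher in CD25+CD49f- cells, with a list mean of 10.28 to 10.75, against 8.84 to 9.32 in CD25-CD49f+ cells. These markers include Il2ra, which codes CD25, by which the gates were sorted. Of the measured gamma delta and NKT cell markers 1 of 3 was higher (6.27 to 6.54, against 6.08 to 6.44), at list means in or near the range of absent transcripts. Of the 12 myeloid and dendritic cell markers 3 were higher and 1 lower (6.94 to 7.40, against 6.90 to 7.51). The part of these cells in the receptor differences was not tested.

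The receptors thus fell into different orders of gates. For Ccr6 the order was CD25+CD49f- (10.003 ± 0.353), CD25+CD49f+ (8.67 ± 0.24), CD25-CD49f+ (8.25 ± 0.25) and CD25-CD49f- (7.01 ± 0.19), and the middle pair was not called apart. Ccr9 ran CD25+CD49f- (8.67 ± 0.34), CD25-CD49f- (7.83 ± 0.39), CD25-CD49f+ (6.87 ± 0.37) and CD25+CD49f+ (6.31 ± 0.44), and the last pair was not called apart. Ccr7 was highest in CD25-CD49f- cells (11.23 ± 0.25), and its other gates (10.09 ± 0.18, 10.18 ± 0.29 and 10.24 ± 0.24 in CD25+CD49f+, CD25+CD49f- and CD25-CD49f+ cells) were not called apart. Cxcr3 was highest in CD25-CD49f+ cells (10.63 ± 0.10), and of its other gates (9.28 ± 0.17, 9.33 ± 0.29 and 8.96 ± 0.16 in CD25+CD49f+, CD25+CD49f- and CD25-CD49f- cells) only CD25+CD49f- and CD25-CD49f- cells were called apart. All these are means ± SD of 4, 5, 7 and 7 arrays in the order CD25+CD49f+, CD25+CD49f-, CD25-CD49f+ and CD25-CD49f-.

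For the 8 receptors with a group mean above 6.50, the 2 genes with the most similar pattern were found by Pearson's r over the 23 arrays, among 8453 genes above that level. These correlations are descriptions, since the arrays share 4 gates and much of r is the difference between gates. Ccr6 was closest to Klrg1 (r = 0.951), an inhibitory receptor of terminally differentiated lymphocytes, and Itgae (r = 0.950), which codes the CD103 integrin chain. Cxcr3 was closest to Anxa2 (r = 0.964) and Cenpa (r = 0.954), Ccr7 to Rgs11 (r = 0.958) and Dgkd (r = 0.943), and Cxcr5 to Sla (r = 0.941) and Actg2 (r = 0.939). Ccr10 was closest to Tbx21 (r = 0.916) and Emp1 (r = 0.876), Ccr9 to Cd7 (r = 0.899) and Bcl2l11 (r = 0.869), Ccr2 to Anxa1 (r = 0.884) and Fkbp5 (r = 0.880), and Cxcr6 to Hgsnat (r = 0.853) and Ero1a (r = 0.843). Cxcr6 stands here by its brightest probe set, and without CD25+CD49f- replicate 5, which read 5.08 on it, r was 0.842 for Hgsnat and 0.856 for Ero1a. Among the receptors themselves the highest r was 0.83, between Ccr6 and Ccr8 and between Cxcr3 and Ccr10.

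Of the 10 receptor genes 6 are on chromosome 9, where Ccr9, Fyco1, Cxcr6, Xcr1, Ccr1, Ccr1l1, Ccr3 and Ccr2 follow each other in RefSeq (GRCm38.p6). None of their neighbours there outside the 10 receptors was called between the CD25+ gates. Fyco1, which lies between Ccr9 and Cxcr6, averaged 8.31 in CD25+CD49f+ and 8.30 in CD25+CD49f- cells, a difference of 0.01 ± 0.15 (limma adjusted p = 0.999). Ccr1 gave -0.23 ± 0.14 (adjusted p = 0.871) and Ccr3 -0.20 ± 0.12 (adjusted p = 0.851). Xcr1 gave 0.01 and Ccr1l1 0.00, and the means of Xcr1, Ccr1, Ccr1l1 and Ccr3 were in the absent range in every gate.

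Of 13 other chemokine receptors listed, 11 were measured. Between CD25+CD49f+ and CD25+CD49f- cells 0 were called by limma, where 1.82% of all genes were (median difference -0.20, over all genes 0.01). Between CD25-CD49f+ and CD25-CD49f- cells 1 was higher and 1 lower, where 13.4% of all genes were called (median -0.11, all genes -0.02). The higher gene was Ccrl2, which codes a non-signalling receptor that presents chemerin, with 0.93 ± 0.15 (adjusted p = 4.81e-05), and the lower was Cx3cr1, the fractalkine receptor, with -0.31 ± 0.10 (adjusted p = 0.0287). Ccrl2 averaged 7.04 in CD25+CD49f+, 7.29 in CD25+CD49f-, 6.59 in CD25-CD49f+ and 5.66 in CD25-CD49f- cells. Ccrl2 was also the gene called in the comparison of CD25+CD49f- with CD25-CD49f- cells, where its difference was 1.62 and 14% of all genes were called.

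Of 19 chemokines listed as ligands, 17 were measured. Ccl1, the ligand of CCR8, averaged 5.62 ± 0.09 in CD25+CD49f+, 6.74 ± 0.29 in CD25+CD49f-, 5.16 ± 0.18 in CD25-CD49f+ and 4.85 ± 0.10 in CD25-CD49f- cells, and was called lower by limma between the CD25+ gates (-1.12 ± 0.12, adjusted p = 7.36e-07). Ccl5, best known as a ligand of receptors outside the 10, was the other ligand called there (-0.67 ± 0.18, adjusted p = 0.0498), and 0 were called higher, where 1.47% of all genes were called lower and 0.352% higher (median -0.00, all genes 0.01). In CD25-CD49f+ against CD25-CD49f- cells 2 were higher and 0 lower, where 8.01% of all genes were higher and 5.42% lower (median -0.05, all genes -0.02). These were Cxcl10, a ligand of CXCR3 (2.41 ± 0.25, adjusted p = 8.7e-08), and Ccl1 (0.31, adjusted p = 0.0326). Cxcl10 averaged 7.49, 7.81 and 6.95 in CD25+CD49f+, CD25+CD49f- and CD25-CD49f+ cells, against 4.54 in CD25-CD49f- cells, a signal of the absent range.

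Of 32 genes of G protein signalling and receptor desensitisation, 31 were measured. Rgs18, a regulator of G protein signalling, was the 1 called between the CD25+ gates, lower in CD25+CD49f+ cells (-1.95 ± 0.35, limma adjusted p = 0.0013, list median 0.01), at a mean of 4.22 there and 6.16 in CD25+CD49f- cells, both signals of the absent range, where 1.82% of all genes were called. In CD25-CD49f+ against CD25-CD49f- cells 4 were higher and 3 lower (median 0.09), where 13.4% of all genes were called. Rgs1, which damps chemokine receptor signals, rose by 3.28, and Pik3r5, a regulatory subunit of the gamma isoform of phosphoinositide 3-kinase, and Grk3, a receptor kinase, fell by 0.63 and 1.35. In CD25+CD49f+ against CD25-CD49f+ cells 4 were higher and 4 lower (median -0.14), where 5.72% of all genes were called. In CD25+CD49f- against CD25-CD49f- cells 7 were higher and 7 lower (median -0.04), where 14% of all genes were called. Rgs1 averaged 10.94 in CD25+CD49f+, 10.77 in CD25+CD49f-, 9.99 in CD25-CD49f+ and 6.71 in CD25-CD49f- cells.

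Of 20 listed trafficking genes, mostly other receptors and adhesion molecules, 18 were measured. The list includes Klf2, which is also among the transcription factors listed below. Between CD25+CD49f+ and CD25+CD49f- cells 1 was higher (Itgb1, 1.74) and 2 were lower by limma (median -0.02), where 0.352% of all genes were higher and 1.47% lower. The lower genes were Itgae, whose CD103 product binds E-cadherin on epithelium (-1.21 ± 0.21, adjusted p = 8.34e-04), and Gpr183, an oxysterol receptor that positions lymphocytes (-0.55, adjusted p = 0.028). Itgae averaged 9.28 in CD25+CD49f+, 10.48 in CD25+CD49f-, 8.32 in CD25-CD49f+ and 5.96 in CD25-CD49f- cells, the same order of gates as Ccr6. In CD25-CD49f+ against CD25-CD49f- cells 8 were higher and 2 lower (median 0.12), where 8.01% of all genes were higher and 5.42% lower. The higher genes included Itgae (2.36), Itgb1 (2.13) and the gut homing receptor Gpr15 (1.68). In CD25+CD49f+ against CD25-CD49f+ cells 2 were higher and 3 lower (median -0.15), where 2.81% of all genes were higher and 2.91% lower. In CD25+CD49f- against CD25-CD49f- cells 6 were higher and 4 lower (median -0.14), where 9.34% of all genes were higher and 4.68% lower.

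Of 17 transcription factors linked to homing programmes, 16 were measured. Foxp3 and Zbtb16 are also among the cell type markers above, so these counts are not separate from those. Between CD25+CD49f+ and CD25+CD49f- cells 0 were higher and 4 lower by limma (median -0.17), among them Zbtb16 (-0.72, adjusted p = 0.00134), Prdm1, which codes Blimp-1 (-0.95, adjusted p = 0.002), and Rora, a ROR factor of Th17 cells (-0.51, adjusted p = 0.02). In CD25-CD49f+ against CD25-CD49f- cells 11 were higher and 2 lower (median 0.62), with Foxp3 (3.51), Rora (1.52) and Tbx21 (1.26). In CD25+CD49f+ against CD25-CD49f+ cells 2 were higher and 4 lower (median -0.01), with Foxp3 (1.60) higher and Tbx21 (-1.28) and Zbtb16 (-0.81) lower. In CD25+CD49f- against CD25-CD49f- cells 11 were higher and 2 lower (median 0.88). The median over all genes lay between -0.02 and 0.02 in these 4 comparisons. Of all genes 0.352% were called higher and 1.47% lower in the first of them, and 8.01% higher and 5.42% lower in the second. In the third 2.81% were higher and 2.91% lower, and in the last 9.34% higher and 4.68% lower.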

How the data were processed

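Expression was deposited as log2 values, 45101 probe sets on each of 23 arrays, which the authors made with RMA, per the submitters' processing notes. Its version was not given in the sources used here, and no further scaling was applied. By the array annotation 34958 probe sets named a single gene, 932 several and 9211 none. Of the 34958, 34754 matched the RefSeq table (GRCm38.p6) by Entrez identifier. With the brightest probe set standing for a gene, 18194 genes were tested.

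The test was limma's (version 3.58.1, R 4.3.3; lmFit, contrasts.fit, eBayes), 1 model holding the 4 gates, adjusted by Benjamini-Hochberg over all genes and called under 0.05. Where stated, the fit and the adjustment ran over all probe sets that name 1 gene. The labels do not say how animals were pooled, so p-values measure the spread of these samples, and the number of arrays limits the precision. The highest correlation between 2 arrays of a gate was 0.996, so none was taken as a repeat of another. Array kinds were set by Y-linked transcripts above 6 and Xist above 8.

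All 10 receptors were named in every comparison. Il2ra, Itga6, Foxp3, Xist, Eif2s3y and Kdm5d were named as checks, up to 3 called members with the smallest p were named for a list, and 2 genes with the highest r for a receptor. Fyco1 and its neighbours, Siglech, Blk and Zbtb16 were named as neighbours or markers of a result. The receptors, lists and motifs were chosen with earlier results of these data known. The replicate numbers were not used as pairs, and whether same-numbered samples belong together was not settled. The deviations of 29 same-numbered pairs correlated between -0.514 and 0.413, and 15 were over 0.1. In the CD25- gates the arrays of replicates 2 and 5 differed in kind, and in the CD25+ gates those of replicates 1 to 4 did not. The alternatives were each array left out, other probe set rules, scalings, thresholds, array weights, a robust trended eBayes, a replicate block, brighter genes, the compared gates alone and the kinds of arrays. Fits without the arrays that stood apart and with the Actb difference as a covariate were added after seeing the data. The fit was tested on simulated data. Figures were drawn with matplotlib 3.10.9.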

Additional observations from a re-analysis of the deposited data

Results flagged for a closer look

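The receptors were examined for single arrays far from the rest of their gate, over 72 groups of arrays and probe sets, of which chance alone marks about 1 in 20. It marked 7. On the brightest probe sets these were Ccr10 in CD25-CD49f+ replicate 7 (6.17, next array 6.67), Ccr7 in CD25-CD49f+ replicate 1 (10.76, next 10.27), an array that stood apart, and Cxcr6 in CD25+CD49f+ replicate 2 (6.07, next 5.72). On further probe sets they were Ccr9 in CD25-CD49f- replicate 5 (7.24, next 6.16), Ccr9 in CD25+CD49f- replicate 5 (3.54, next 3.27) and in CD25+CD49f- replicate 1 (3.68, next 3.42), and Ccr2 in CD25+CD49f- replicate 5 (7.30, next 6.73). The low Cxcr6 value of CD25+CD49f- replicate 5 on the brightest probe set was not among them.

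The CD49f difference in CD25+ cells minus that in CD25- cells was called by limma for 8 receptors. It was -3.15 for Cxcr6, -2.57 for Ccr6, -1.72 for Cxcr3, -1.40 for Ccr9, -1.13 for Ccr2, -1.02 for Ccr10, -0.51 for Ccr8 and 0.90 for Ccr7.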

How the results depend on the processing

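Over 41 alternatives 2839 receptor differences were recomputed. Of these 2681 kept their side of the threshold, 93 lost a call, 65 gained one and 0 called values changed sign. Sign changes of values not called were not counted. Counts of called receptors moved by over 1.5 times as follows. With a log2 difference of at least 1 as a further threshold, CD25-CD49f+ against CD25-CD49f- had 3 (8 as reported) and CD25+CD49f- against CD25-CD49f- had 2 (6 as reported). With array weights, CD25+CD49f+ against CD25-CD49f+ had 7 (4 as reported) and CD25+CD49f- against CD25-CD49f+ had 8 (5 as reported). Array weights also raised the calls over all genes in the comparisons totalled below. Totals for these 2 are not given, so whether their rise is particular to the receptors cannot be told. With Y-linked arrays alone, CD25+CD49f+ against CD25-CD49f+ had 2. The interaction (8 as reported) had 3 with arrays without Y-linked transcripts and 4 with Y-linked arrays, fits that hold fewer arrays. Leaving out 1 array gave 2 to 3 called receptors for CD25+CD49f+ against CD25+CD49f-, 8 to 9 for CD25-CD49f+ against CD25-CD49f-, 4 for CD25+CD49f+ against CD25-CD49f+, 4 to 7 for CD25+CD49f- against CD25-CD49f-, 5 to 7 for CD25+CD49f+ against CD25-CD49f-, 4 to 6 for CD25+CD49f- against CD25-CD49f+ and 7 to 9 for the interaction. With the replicate number as a fixed replicate block the counts in the same order were 3, 9, 4, 6, 6, 4 and 7, and with a random replicate block 3, 8, 4, 6, 5, 5 and 8. Under the fixed block Cxcr5 lost its call in CD25+CD49f- against CD25-CD49f+ cells, at -0.56 with an adjusted p of 0.111. Of 23 arrays, 2 correlated best with an array of their own number. Over all genes, CD25+CD49f+ against CD25+CD49f- called 332 genes, against 762 with array weights, 588 without the 4 arrays that stood apart, and 119 and 92 in arrays without and with Y-linked transcripts, and the interaction called 966, against 2273, 1710, 370 and 242. The cause of these changes was not tested. The brighter 9097 genes leave out Ccr4, Ccr8 and Ccr10, whose signals near background limit what their differences can show.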
